A study of Mus musculus with 24 samples.

Results

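The let-7 family is described here without let-7e-5p. Its members were taken by name, as the array rows for mmu-let-7a-5p, mmu-let-7b-5p, mmu-let-7c-5p, mmu-let-7d-5p, mmu-let-7f-5p, mmu-let-7g-5p, mmu-let-7i-5p and mmu-miR-98-5p. These are 8 of the 1881 mouse miRNAs on the array and 8 of the 339 that were tested. All 8 were called detected on all 24 arrays, so none passed the filter on undetected miRNAs through a single group. Hepatocytes came from 3 male C57BL/6J mice aged 3 months, fed ad libitum in a reverse light-dark cycle and given no treatment. Viable tetraploid hepatocytes without CD45 or CD31 were sorted on CD73 and E-cadherin into 8 populations, from zone 1, the most pericentral, to zone 8, the most periportal. Each array held RNA of 1 zone of 1 mouse, from 50000 sorted cells, so a zone had 3 arrays and zones 5 to 8 and zones 1 to 4 had 12 arrays each. A zone is thus defined by 2 surface proteins on sorted cells, not by a position seen in tissue.

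MicroRNAs are short RNAs that guide Argonaute proteins to messenger RNAs, mainly by pairing through the seed near their 5′ end. Members of the let-7 family are abundant in adult, differentiated tissues, and their maturation is blocked by LIN28 proteins in embryonic and stem cells. Known targets include Hmga2, Lin28a, Lin28b and Ras family messages, and let-7 has been linked to insulin and glucose handling in mice.

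The mature sequences below are from RefSeq on GRCm38.p6, where all 8 members were matched. They are shown because they tell how little separates the miRNAs compared here. Capitals mark the seed, bases 2 to 8 from the 5′ end.
let-7g-5p: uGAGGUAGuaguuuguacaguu
let-7a-5p: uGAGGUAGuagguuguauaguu
let-7f-5p: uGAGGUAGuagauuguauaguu
let-7c-5p: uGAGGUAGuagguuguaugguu
let-7b-5p: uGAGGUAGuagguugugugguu
let-7d-5p: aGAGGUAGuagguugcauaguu
let-7i-5p: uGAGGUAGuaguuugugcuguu
miR-98-5p: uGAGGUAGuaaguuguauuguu
let-7e-5p: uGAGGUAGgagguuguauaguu

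All 8 members are 22 bases long and share 1 seed, GAGGUAG, as does let-7e. With positions counted from the 5′ end and let-7a as the first sequence, let-7c differs by A19G and let-7f by G12A. The substitutions are A17G and A19G in let-7b, U1A and U16C in let-7d, G11A and A19U in miR-98, and G12U and U18C in let-7g. With 4 substitutions, let-7i is the most distant from let-7a (G12U, A17G, U18C and A19U), and it differs from let-7g by A17G and A19U. let-7e differs from let-7a by U9G. Members so alike may be bound in part by each other's probes, and this was not tested, so that every level and every difference between members below is uncertain to that extent.

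The members come from 11 hairpins listed in the same table. let-7g lies at chr9:106178846-106178867 on the plus strand, inside Wdr82, with no other hairpin within 10 kb and Mir135a-1 within 60 kb. let-7i, at chr10:122985698-122985719 on the minus strand, has no other hairpin within 60 kb. On the minus strand of chromosome 13 the hairpins of let-7a-1 (mature chr13:48538239-48538260), let-7f-1 (chr13:48537889-48537910) and let-7d (chr13:48536078-48536099) lie within 10 kb of each other. let-7c-2 (chr15:85706616-85706637) and let-7b (chr15:85707325-85707346) lie together in the long non-coding gene Lncppara, and let-7f-2 (chrX:151912353-151912374) and miR-98 (chrX:151913229-151913250) lie in Huwe1, all on the plus strand. let-7c-1 (chr16:77599672-77599693) lies beside Mir99a. The hairpin of let-7a-2 (chr9:41536716-41536811) lies in Mir100hg, beside Mir100 and within 60 kb of Mir125b-1. An array cannot tell which hairpin a mature let-7a, let-7c or let-7f came from. The ending 5p is left out of members' names below.

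Summed miRNA signals per array lay between 57935 and 138301 intensity units, with 248 to 368 miRNAs detected. The labelled cell type was checked on markers. All 3 hepatocyte miRNAs (miR-122-5p, miR-192-5p and miR-194-5p) were detected on all 24 arrays, and of 21 listed markers of leukocytes, stellate cells, biliary, endothelial and erythroid cells only 2 were detected on any. These were miR-126a-3p, an endothelial miRNA detected on 9 arrays of zones 5 to 8 and 7 arrays of zones 1 to 4, and miR-200b-3p on 1 array. The deposited miR-126a-3p signal reached 9.53 in zones 5 to 8 and 10.9 in zones 1 to 4. In such sorted populations fewer cells that hold a miRNA and less of it per cell cannot be told apart. Each mouse had a slide of its own, and on all 3 slides zones 5 to 8 lay in row 2 and zones 1 to 4 in row 1, so that zones 5 to 8 against zones 1 to 4 and slide row cannot be told apart.

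Signals were scaled to the same 75th percentile on every array and are called scaled signals, in intensity units. Differences are on the log2 scale. The arrays of zones 1 and 4 of mouse 2 stood apart in the family's level. On them the mean log2 level of the 8 members lay -0.44 and -0.60 from the mean of that mouse, while the other 22 arrays lay between -0.31 and 0.25. The remaining tested miRNAs also lay farther from their mouse mean there, by a median absolute 0.35 in zone 1 and 0.41 in zone 4, against 0.13 to 0.30 on the other 22 arrays. Their median correlation with the other arrays was 0.906 and 0.898, close to the 0.900 to 0.919 of the other 6 arrays of mouse 2. The tests below are therefore given with and without these 2 arrays, as are the ratios between members and the order of zones for let-7g.

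**Figure D1:**
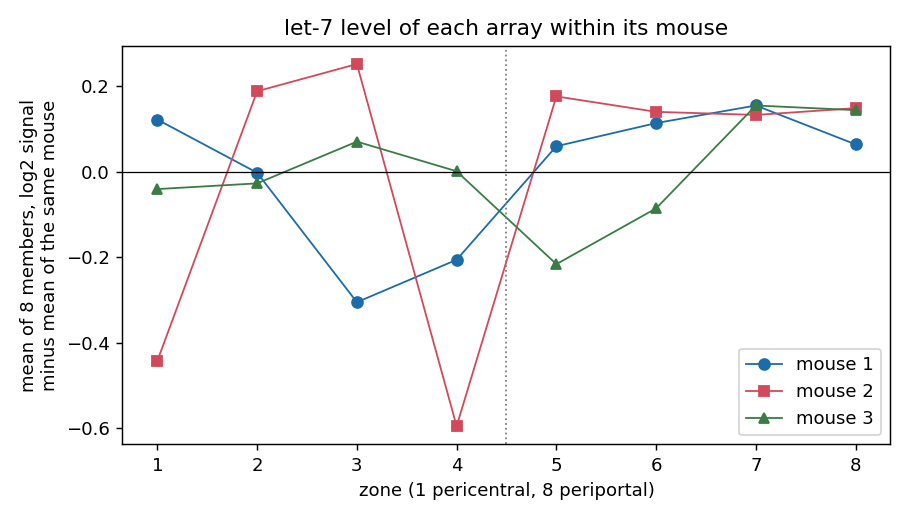
Mean log2 scaled signal of the 8 let-7 members on each array minus the mean of the same mouse (y axis, log2 units), by zone (x axis), with 1 line per mouse and a dotted line between zones 4 and 5. Zones 1 and 4 of mouse 2, at -0.44 and -0.60, lie below the other 22 arrays, which span -0.31 to 0.25.

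Whether members follow the axis of the lobule was asked first by setting zones 5 to 8 against zones 1 to 4. let-7g was higher in periportal zones. In mouse 1 its scaled signals were 503.1, 445.6, 400.2, 437.5, 581.4, 607.4, 625.4 and 584.6 in zones 1 to 8. In mouse 2 they were 308.8, 453.7, 498.7, 248.5, 527.7, 560.2, 566.3 and 560.9. In mouse 3 they were 458.5, 454.1, 481.0, 467.0, 455.3, 514.8, 618.1 and 606.9. In mice 1 and 2 every zone from 5 to 8 lay above every zone from 1 to 4, and in mouse 3 zone 5 lay among zones 1 to 4. Over all mice 11 of the 12 arrays of zones 5 to 8 lay above the highest array of zones 1 to 4. The fitted difference was 0.42 ± 0.11 (log2, SE), or 1.34-fold, with an adjusted p of 0.00787 in limma over all tested miRNAs. Within mice 1, 2 and 3 the difference was 0.43, 0.61 and 0.23.

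Of the 8 members 1 rose in zones 5 to 8 (let-7g) and 0 fell, where 10.3% of all tested miRNAs were called higher and 5.9% lower (13.3% and 14.7% with mouse as a block, which left the members' calls as they were). A count of 1 in 8 is close to this background. The members' median difference was 0.12, against -0.08 over all 339, of which 38.9% lay above 0. All 8 members had differences above 0, but with quantile normalization those of let-7a, let-7b, let-7c and let-7f lay below 0. At an unadjusted p under 0.05, 2 members passed (let-7g and let-7a) and 93 of all tested miRNAs.

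**Figure D2:**
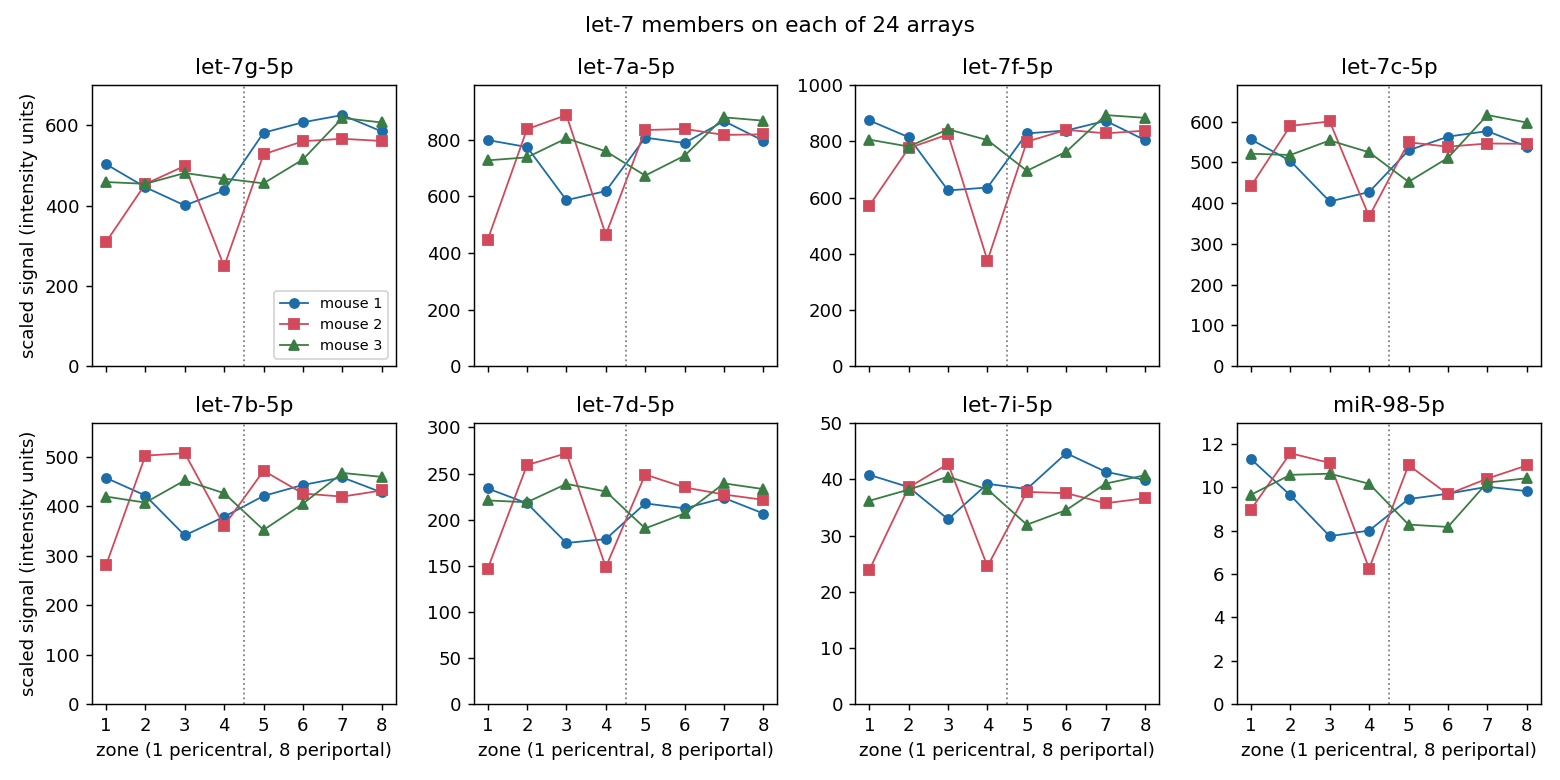
Scaled signal (y axis, intensity units, from 0) of each let-7 member on each of 24 arrays by zone (x axis), with 1 line and marker per mouse and a dotted line between zones 4 and 5. let-7g spans 455 to 625 in zones 5 to 8 and 248 to 503 in zones 1 to 4, and the ranges of the other 7 members overlap more; under quantile normalization the differences of let-7a, let-7b, let-7c and let-7f turn below 0.

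let-7a and let-7f are among the most studied members, and each has 1 of its hairpins in the group on chromosome 13, which also holds that of let-7d. let-7a had a lowest, median and highest scaled signal of 674, 819 and 880 in zones 5 to 8 and of 446, 749 and 888 in zones 1 to 4. The highest array of all was zone 3 of mouse 2, so the ranges overlapped at the top. Its difference was 0.23 ± 0.11, or 1.18-fold (adjusted p = 0.164, limma), and within mice 1, 2 and 3 it was 0.24, 0.40 and 0.06. let-7f spanned 695, 833 and 894 in zones 5 to 8 and 376, 793 and 875 in zones 1 to 4. Its difference of 0.21 ± 0.11 also missed the threshold (adjusted p = 0.226, limma). Its lowest array, at 376, was zone 4 of mouse 2. let-7d spanned 191, 223 and 249 in zones 5 to 8 and 147, 220 and 272 in zones 1 to 4, with the range of zones 1 to 4 enclosing that of zones 5 to 8.

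let-7c and let-7b share the Lncppara locus and differ from each other by A17G in let-7b. let-7c spanned 452, 546 and 616 in zones 5 to 8 and 367, 520 and 600 in zones 1 to 4. let-7b spanned 352, 430 and 472 in zones 5 to 8 and 280, 421 and 507 in zones 1 to 4. The medians differed little and the ranges overlapped in both. Their differences were 0.14 ± 0.08 for let-7c and 0.08 ± 0.09 for let-7b (adjusted p = 0.297 and 0.660, limma).

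let-7i and miR-98 gave the dimmest signals of the family. let-7i spanned 31.9, 38.0 and 44.7 in zones 5 to 8 and 23.9, 38.4 and 42.8 in zones 1 to 4. miR-98 spanned 8.17, 9.92 and 11.0 in zones 5 to 8 and 6.26, 9.91 and 11.6 in zones 1 to 4. Their medians were nearly the same on both sides, and the differences were 0.09 ± 0.10 and 0.05 ± 0.09 (adjusted p = 0.631 and 0.825, limma). The error that the files give for each signal had a median of 11.7% for miR-98, against 7.33% for the member with the smallest error. In mouse 3 the differences of 5 members lay below 0, from -0.15 in miR-98 to -0.01 in let-7f.

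With the 2 arrays of mouse 2 left out, let-7g was still higher in zones 5 to 8, by 0.30 ± 0.07 (adjusted p = 0.00382, limma). The differences of the other 7 members shrank to between -0.02 and 0.12. let-7d then stood at 0.00 ± 0.09, and let-7i and miR-98 lay below 0, at -0.02 each. The call on let-7g was lost when mouse 1 was left out (0.42 ± 0.15, adjusted p = 0.120) and when mouse 3 was left out (0.52 ± 0.15, adjusted p = 0.0524). It was also lost with quantile normalization (0.20 ± 0.07, adjusted p = 0.0910) and without scaling (0.53 ± 0.17, adjusted p = 0.0608).

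**Figure D3:**
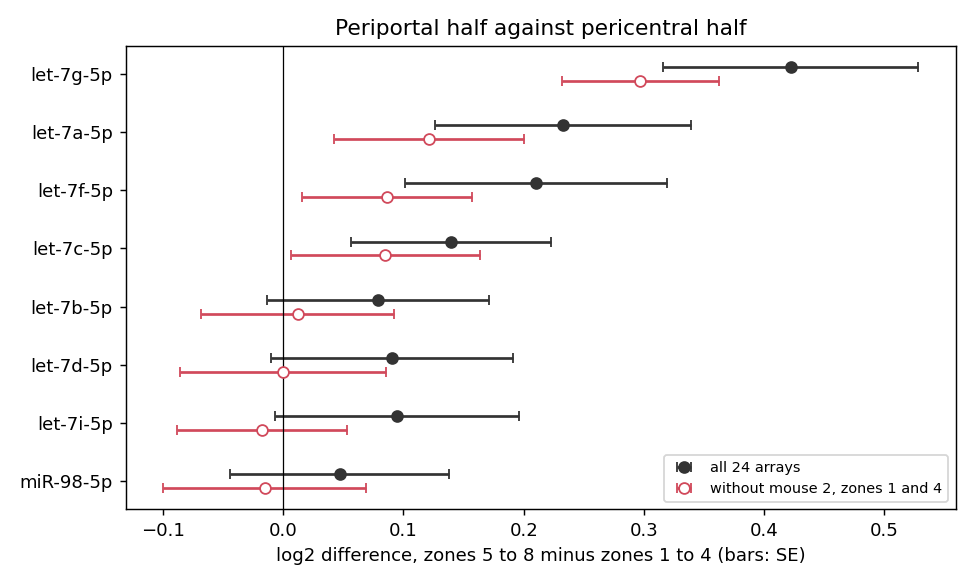
Log2 difference of scaled signals, zones 5 to 8 minus zones 1 to 4 (x axis), for the 8 let-7 members, with bars of 1 SE, from all 24 arrays (filled) and without zones 1 and 4 of mouse 2 (open). let-7g lies at 0.42 with all arrays and 0.30 without the 2, and the others between 0.05 and 0.23 and between -0.02 and 0.12; with quantile normalization of all arrays let-7a, let-7b, let-7c and let-7f lie below 0.

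The slope on the zone number gave a linear trend over the 8 zones. A step between zones 4 and 5 also gives such a slope, so it cannot show a graded change. The fitted slope of let-7g was 0.0822 ± 0.0236 log2 units per zone (SE), with an adjusted p of 0.0166 in limma. It corresponds to a fitted change of 0.58 ± 0.17 from zone 1 to zone 8. Inside zones 1 to 4 its slope was -0.0467 ± 0.0640, and inside zones 5 to 8 it was 0.0618 ± 0.0640, neither called. Again 1 of 8 members was called higher and 0 lower, where 10.3% and 6.49% of all tested miRNAs were called (14.5% and 16.5% with mouse as a block). The slopes of the other 7 members lay between 0.0027 and 0.0458, with adjusted p-values of 0.189 to 0.948. The family's median slope was 0.0238, against -0.0142 over all tested miRNAs, 43.1% of which had slopes above 0. Fitted in each mouse alone, 23 of 24 slopes lay above 0, the exception being miR-98 in mouse 3 at -0.0109, but with quantile normalization the overall slopes of let-7a, let-7b, let-7c and let-7f lay below 0.

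Without the 2 arrays of mouse 2 the slope of let-7g was 0.0643 ± 0.0139 (adjusted p = 0.00155, limma), and those of the others lay between -0.0048 and 0.0227. The call on the slope of let-7g was lost without mouse 1 (0.0865 ± 0.0316, adjusted p = 0.101) and without mouse 3 (0.0916 ± 0.0337, adjusted p = 0.0987), where the slope was no smaller than with all mice. It was lost without zone 7 (0.0742 ± 0.0274, adjusted p = 0.0789), without zone 8 (0.0865 ± 0.0308, adjusted p = 0.0783) and with quantile normalization, which gave a smaller slope (0.0325 ± 0.0167, adjusted p = 0.228). With mouse and slide row as terms the slope of let-7g was 0.0075 ± 0.0432 (adjusted p = 0.914), and no miRNA of the 339 was called. The slopes did not differ detectably between mice in any member (0 of 8 called, adjusted p = 0.947 to 0.999, limma), where 0.885% of tested miRNAs were called.

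By zone, let-7g averaged 423 ± 102, 451 ± 4.81, 460 ± 52.5, 384 ± 119, 521 ± 63.3, 561 ± 46.3, 603 ± 32.2 and 584 ± 23.0 in zones 1 to 8 (SD, n = 3 each). Its order of mean log2 levels from the highest was zone 7, 8, 6, 5, 3, 2, 1 and 4. The wide SDs of zones 1 and 4 hold the 2 arrays of mouse 2, without which those zones averaged 481 and 452 (n = 2 each) and the order was zone 7, 8, 6, 5, 1, 3, 4 and 2. Of the 56 steps between neighbouring zones in the members' orders, in all 56 the values overlapped when the 3 mice were pooled. Pooling ignores the pairing by mouse, and neighbours in such an order have close means. The overlap therefore cannot show whether a step holds within mice. Read mouse by mouse, let-7g signals of zone 6 exceeded those of zone 5 in all 3 mice, and so did zone 7 against zone 8. In the remaining steps of its order over all arrays the mice were split. These paired steps were not tested.

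The ends of the axis gave no call. Zone 8 of let-7g held 584.6, 560.9 and 606.9 in mice 1 to 3, against 503.1, 308.8 and 458.5 in zone 1. All 3 values of zone 8 lay above all 3 of zone 1. The difference was 0.49 ± 0.21 (adjusted p = 0.224, limma), and without the 2 arrays of mouse 2 it was 0.28 ± 0.14 (adjusted p = 0.338). For the other 7 members it lay between 0.07 and 0.38. Of the 8 members 0 were called in either direction, where 4.72% of tested miRNAs were called higher and 0.59% lower (7.67% and 2.06% with mouse as a block, and again 0 members). At an unadjusted p under 0.05, 1 member (let-7g) and 56 of all tested miRNAs passed.

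A test of any difference among the 8 zones called 0 of 8 members, where 5.31% of tested miRNAs were called (9.14% with mouse as a block, and 0 members). let-7g had the smallest adjusted p (0.298, limma), and 1 member and 43 of all tested miRNAs passed at an unadjusted p under 0.05. Inside each side of the axis no graded change was detected. Within zones 5 to 8 the slopes of the 8 members lay between 0.01 and 0.06 per zone, and within zones 1 to 4 between -0.11 and 0.01. In both, 0 of 8 were called, where 1.18% of tested miRNAs were called higher within zones 5 to 8 and 0% within zones 1 to 4 in either direction. With mouse as a block these shares were 1.77% higher and 0.295% lower within zones 5 to 8, and 0.295% higher within zones 1 to 4. At an unadjusted p under 0.05, 0 members passed in either, with 21 of all tested miRNAs in zones 5 to 8 and 14 in zones 1 to 4 (limma). Leaving out the 2 arrays of mouse 2 also gave 0 members called among the 8 zones, inside either side, between mice and in slope between mice. The shares of all tested miRNAs called without these arrays are not given here, so these counts are not read as a result about the family.

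Whether let-7g differs from its own family was tested on log2 ratios of members on the same array, over 28 pairs. Ratios do not depend on the scaling to a percentile, and only their changes are read, since probes of different members cannot be set against each other by level. The slope of let-7g exceeded that of 6 of the other 7 members, by 0.0795 ± 0.0173 per zone over miR-98 (adjusted p = 0.00142), 0.0675 ± 0.0159 over let-7d (0.0033) and 0.0621 ± 0.0185 over let-7b (0.0169). The excess was 0.0590 ± 0.0149 over let-7i (0.00613), 0.0577 ± 0.0150 over let-7c (0.00699) and 0.0501 ± 0.0121 over let-7f (0.0052). Over let-7a it was 0.0364 ± 0.0139 and missed the threshold, with an adjusted p of 0.051, or 0.0261 with mouse as a block. All values are from limma, with the larger of the adjusted p-values of both members' tables. In the table of ratios to let-7g, 39.6% of all tested miRNAs had slopes called below that of let-7g and 3.85% above it, so a slope below let-7g was common among all miRNAs too (50.6% below with mouse as a block). In the tables of the other members, the miRNAs called above the member, as let-7g was, made up 6.8% for let-7a, 8.28% for let-7b, 8.58% for let-7c and 9.76% for let-7d. They made up 7.99% for let-7f, 7.99% for let-7i and 10.9% for miR-98.

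On the scale of arrays, the log2 ratio of let-7g to let-7i minus its own mean lay between 0.04 and 0.26 in zones 5 to 8 and between -0.39 and -0.04 in zones 1 to 4. Here no array of zones 5 to 8 overlapped with zones 1 to 4, in any mouse. It was the only one of the 7 ratios without overlap across mice. Within single mice, the ratio of let-7g to a member was higher in zones 5 to 8 in all 21 combinations of member and mouse, and in 19 of them without overlap. The exceptions were let-7a and let-7f in mouse 2. The mean rise of the ratio was 1.25-fold against let-7i, 1.30-fold against miR-98, 1.26-fold against let-7d, 1.27-fold against let-7b, 1.22-fold against let-7c, 1.16-fold against let-7f and 1.14-fold against let-7a. Without the 2 arrays of mouse 2 the ratio to let-7i minus the same mean lay between 0.04 and 0.26 in zones 5 to 8 and between -0.25 and -0.07 in zones 1 to 4, again the only ratio without overlap across mice. All 21 combinations were then higher and without overlap, and the mean rises were 1.14-fold to 1.25-fold. In mouse 2 alone the rise against let-7b was 1.40-fold with all arrays and 1.34-fold without the 2. The 21 combinations share the let-7g values and the mice and are not independent. How often ratios of let-7g to miRNAs outside the family part in this way was not counted. Slopes called below that of let-7g made up 39.6% of all tested miRNAs, so these counts are not read as particular to the family.

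**Figure D4:**
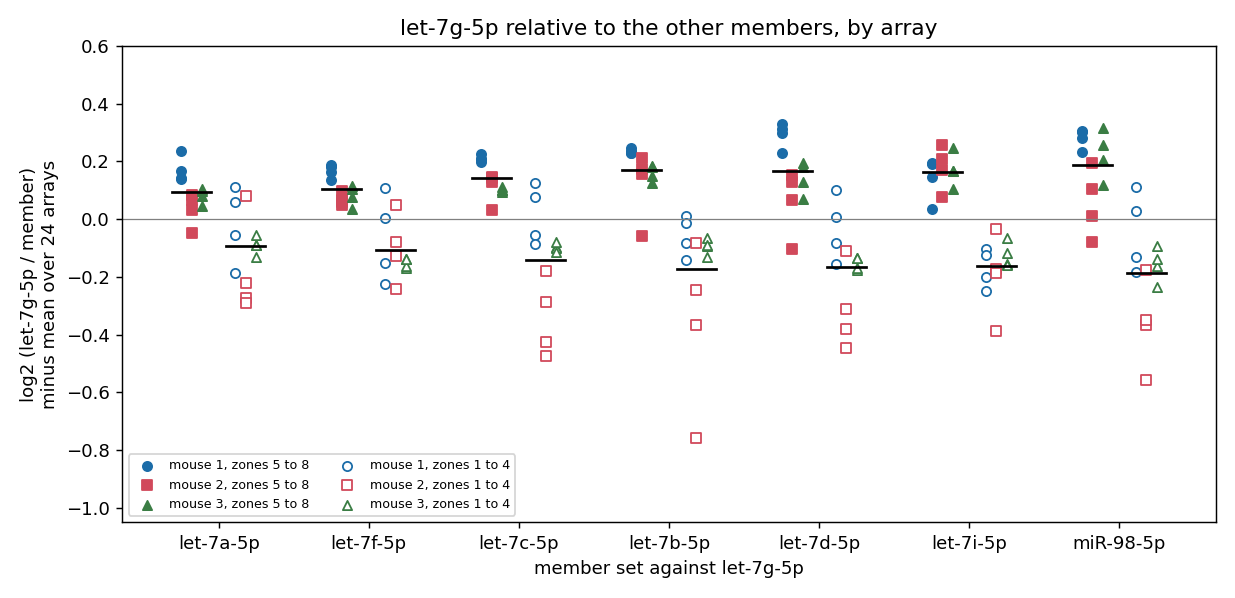
Log2 ratio of let-7g to each other member on each of 24 arrays, minus the ratio's mean over all arrays (y axis), with filled markers for zones 5 to 8 and open markers for zones 1 to 4, a marker shape per mouse and a black bar at the mean of 12 arrays. In the ratio to let-7i the filled markers (0.04 to 0.26) all lie above the open ones (-0.39 to -0.04). It is the only 1 of the 7 ratios without overlap. In the ratio to let-7a the filled markers span -0.05 to 0.23 and the open ones -0.29 to 0.11. With quantile normalization the excess of let-7g over let-7i in slope was not called (adjusted p = 0.829, limma).

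When the 2 arrays of mouse 2 were left out, let-7g exceeded all 7 other members in slope, let-7a included (0.0416 ± 0.0117, adjusted p = 0.0109, limma), and 8 of the 28 pairs were called, against 7 with all arrays. Leaving out a whole mouse moved the count more, to 3 pairs without mouse 1 and 1 pair without mouse 3, against 7 without mouse 2. With quantile normalization 2 pairs were called, let-7g over let-7c and over let-7f, and the excess over miR-98, let-7d and let-7i fell short (adjusted p = 0.723 to 0.829). With mouse and slide row as terms 0 pairs were called. The excess of let-7g over miR-98 was then 0.0338 ± 0.0242 (adjusted p = 0.734, limma), and over let-7b and let-7i it turned to -0.0137 and -0.0139. The shares of all tested miRNAs called below let-7g in these refits are not given here. With all arrays that share was 39.6%, so the pair counts are not read as particular to the family.

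Among the 21 pairs without let-7g, 1 was called, the slope of let-7a over that of let-7d by 0.0311 ± 0.0108 (adjusted p = 0.0366, limma). With any 1 of the 3 mice left out, with quantile normalization, or with mouse and slide row as terms, 0 of these 21 pairs were called. In the table of let-7a, 21.3% of tested miRNAs were called below it. With mouse as a block let-7a over miR-98 was called as well (0.0431, adjusted p = 0.031, against 0.0577 without the block), where the block called 27.2% of miRNAs below let-7a and 13.3% above miR-98. let-7d comes from the stretch of chromosome 13 that also holds 1 hairpin each of let-7a and let-7f. For let-7f over let-7d the difference was 0.0174 ± 0.0154 (adjusted p = 0.501), and for let-7c over let-7b, the pair at Lncppara, 0.0044 ± 0.0132 (adjusted p = 0.861).

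miR-99a-5p, miR-100-5p and miR-125b-5p are known to be encoded in clusters with let-7c or let-7a, and neighbouring hairpins can be transcribed as 1 precursor. miR-99a-5p spanned 51.6, 70.0 and 85.2 in zones 5 to 8 and 20.3, 34.7 and 37.3 in zones 1 to 4 (lowest, median and highest scaled signal). No array of zones 5 to 8 overlapped with zones 1 to 4. miR-125b-5p spanned 142, 190 and 216 in zones 5 to 8 and 67.5, 77.2 and 102 in zones 1 to 4, again without overlap. miR-100-5p spanned 6.07, 7.65 and 9.59 in zones 5 to 8, and in zones 1 to 4 it was undetected on 1 array of 12 and lower on the rest than on any array of zones 5 to 8.

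The slope of miR-99a-5p exceeded that of let-7c by 0.203 ± 0.020 per zone, and that of miR-125b-5p did so by 0.220 ± 0.022 (adjusted p = 4.68e-08 for each, limma). miR-100-5p exceeded let-7a by 0.191 ± 0.041 (adjusted p = 0.00142), and miR-125b-5p exceeded it by 0.199 ± 0.027 (adjusted p = 3.82e-06). These differences were 0.193, 0.232, 0.222 and 0.226 in the same order without the 2 arrays of mouse 2, all still called. With mouse and slide row as terms they were 0.0849, 0.0681, 0.0923 and 0.0534, and none was called (adjusted p = 0.371 to 0.786). let-7c and let-7a each have a second hairpin elsewhere, and the mature forms from both are measured together.

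**Figure D5:**
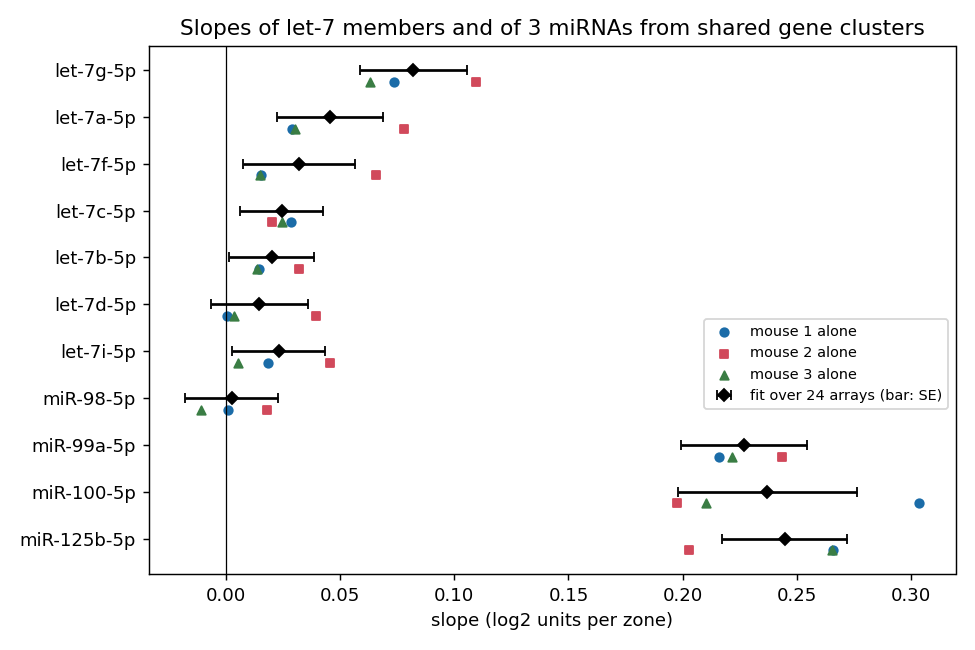
Slope on the zone number (x axis, log2 units per zone) for the 8 let-7 members and 3 miRNAs from shared gene clusters, with diamonds and bars of 1 SE from the fit over 24 arrays and smaller markers for the slope in each mouse alone. let-7g lies at 0.0822, the other members between 0.0027 and 0.0458, and miR-99a-5p, miR-100-5p and miR-125b-5p above all of them; under quantile normalization the slopes of let-7a, let-7b, let-7c and let-7f lie below 0.

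let-7e, which has the same seed, had scaled signals of 11.2 to 22.1 in zones 5 to 8, where each array detected it. In zones 1 to 4 it was found on 4 of 12 arrays, at no more than 2.39. No slope is given for let-7e, which stood at the floor on the other arrays of zones 1 to 4. The other 13 rows of the family on the array, the 3p arms, let-7j and let-7k, were detected on 0 of 24 arrays.

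Levels were also compared between mice, each of which had a slide of its own, so that mouse and slide cannot be told apart. Over its 8 arrays let-7g averaged 523 ± 87.5, 466 ± 122 and 507 ± 68.1 in mice 1 to 3 (SD). A test of any difference between mice called 0 of 8 members, where 54.3% of tested miRNAs were called (limma). At an unadjusted p under 0.05 it passed 0 members and 205 of all tested miRNAs. This count depended on the scaling. Without scaling 3 members were called, along with 260 of all tested miRNAs. Scaling to the summed signal called 8 members and 228 of all tested miRNAs. Calls between mice were thus common among all miRNAs too, and these counts are not read as particular to the family.

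The members moved together from array to array. With each miRNA centred on its mouse mean, Pearson's r between 2 members over 24 arrays lay between 0.697 and 0.959, with a median of 0.887. Without the 2 arrays of mouse 2 it lay between 0.335 and 0.964, with a median of 0.791. The points share arrays, a scale factor per array and near-identical sequences. Among the other 190 miRNAs detected on all arrays and compared in this way, the 5 most like the mean of the 8 members were miR-192-5p (r = 0.930), miR-22-5p (0.915), miR-350-3p (0.905), miR-192-3p (0.900) and miR-26b-5p (0.859). miR-192-5p is an abundant miRNA of hepatocytes. After leaving out the 2 arrays these values were 0.835, 0.866, 0.709, 0.726 and 0.622, and miR-26b-5p then ranked 19. The hepatocyte miRNA miR-122-5p, for comparison, rose by 0.47 ± 0.09 in zones 5 to 8 over zones 1 to 4 (adjusted p = 0.000669, limma), and by 0.39 ± 0.07 without the 2 arrays (adjusted p = 0.000757).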

How the data were processed

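RNA from 24 hepatocyte populations was measured on 1-colour (Cy3) miRNA arrays, per the labels. Each deposited value is an intensity, the total gene signal of a miRNA. The submitters' processing notes name Agilent Feature Extraction, whose version is not given in the sources used here. A detection call of 1 or 0 was also read, per the file headers. Undetected miRNAs held a signal of 0.1. No scaling between arrays is recorded.

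Signals of mouse miRNAs, without 21 control sequences, were scaled to the mean 75th percentile of the 198 miRNAs detected on all arrays (factors 0.746 to 1.37), set to at least 1.12 and log2-transformed. Those detected on at least 6 arrays, 339 in number, were fitted in limma 3.58.1 (R 4.3.3) with Benjamini-Hochberg adjustment over all of them and a threshold of 0.05. Tests were two-sided. The mouse number was the replicate, and 12 arrays of a set of zones stand for 3 animals. Fits without a mouse term treated arrays as independent, so their SEs and p-values mix the spread between animals and within them. The number of arrays limits the precision. Pairs of members were tested on the slope of their log2 ratio, in a table of all miRNAs for each member. The zone number is a rank.

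The fits ran without a block. Arrays with the same mouse number are paired, since their 8 populations were sorted from the same animal. Their deviations from zone means correlated with a median r of 0.610 (lowest 0.254). For arrays of different mice the median was -0.394, but deviations from a mean of 3 arrays cancel out, which by itself pulls this value below 0. Alternatives were mouse as a block, other scalings, filters and floors, slide row as a term, trended and robust eBayes, and each mouse or zone left out. Leaving out 2 arrays of mouse 2 was chosen after seeing the data. Members, lists and tests were chosen with earlier results of these data known. Named miRNAs were the 8 members, let-7e-5p, 3 cluster partners, the 5 closest in profile and miR-122-5p. Fits were tested on simulated data. Sequences and coordinates are those of RefSeq on GRCm38.p6. Python 3.11.15 and matplotlib 3.10.9 drew the figures.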

Additional observations from a re-analysis of the deposited data

How the results depend on the processing

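The estimates for let-7g stayed above 0 in every alternative that could be fitted, in slope and in zones 5 to 8 against zones 1 to 4, while its calls did not hold. With the mouse block and slide row together its slope was 0.00753 (adjusted p = 0.9145, limma), smaller than its SE, so that fit shows no direction. It called 0 miRNAs in all, 0 members and 0 pairs. Slide row could not be fitted to zones 5 to 8 against zones 1 to 4, since both are the same factor. In the slope it takes out the step between zones 4 and 5 and leaves only change inside each side. In that fit let-7c (-0.00874), let-7d (-0.0109), let-7f (-0.0334), miR-98 (-0.0262) and the differences of let-7g over let-7b (-0.0137) and let-7i (-0.0139) turned below 0. The mouse block alone changed no count of members called: let-7g kept its call, with an adjusted p of 0.00886 for the slope and 0.00396 for zones 5 to 8, and pairs called came to 9. Over all miRNAs lower slopes numbered 56 with the block, against 22 without it.

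Quantile normalization called 0 members higher in slope (31 of all miRNAs) and 1 lower (let-7c, -0.0381, with 28 of all). It called 0 members higher in zones 5 to 8 (29 of all), with 2 pairs, both with let-7g. The slopes of let-7a (-0.0174), let-7b (-0.0145) and let-7f (-0.0186) also turned below 0. In zones 5 to 8 against zones 1 to 4, let-7a (-0.0731), let-7b (-0.0891), let-7c (-0.150) and let-7f (-0.0340) turned. No scaling called 0 members higher in zones 5 to 8 (25 of all miRNAs) and 3 members between mice (260 of all miRNAs). Summed-signal scaling called 8 members between mice (228 of all miRNAs). The median fitted change of all miRNAs was -0.10 as reported, 0.10 unscaled, 0.04 with the summed signal and -0.07 with quantiles; lower slopes numbered 22, 3 unscaled, 6 with the summed signal and 28 with quantiles. The cause was not tested.

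Leaving out each mouse gave 0 to 1 members higher in either comparison, 1 to 7 pairs and 1 to 7 pairs with let-7g, a miR-98 slope of -0.00492 to 0.00949 and a miR-98 difference of -0.0242 to 0.147. Without zone 7, and without zone 8, 0 members had a called slope, and the shares over all miRNAs in these fits are not given here. The slope of miR-98 was -0.00103 without zone 4, -0.00343 without zone 7 and -0.0114 without zone 8. Without the 2 arrays of mouse 2 the slopes of let-7d (-0.00477) and miR-98 (-0.0042) and the differences of let-7i (-0.0173) and miR-98 (-0.0153) turned below 0. Filters, the lower floor and eBayes with trend and robust kept both calls on let-7g.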
